A study of Mus musculus with 5 samples.

Results

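The MHC class II presentation genes are the 10 mouse genes Cd74, H2-Aa, H2-Ab1, H2-Eb1, H2-DMa, H2-DMb1, H2-DMb2, H2-Oa, H2-Ob and Ciita. They were taken by gene symbol from the deposited expression tables, where all 10 were found among 38166 features in blood progenitor cells and among 34315 features in granulocytes. Their levels in these same libraries were known when they were grouped, so the values that follow describe the libraries and test nothing. RNA of C57BL/6 mice was selected by its polyA tail and sequenced in 5 libraries. Of these, 3 came from KSL cells, the c-Kit+, Sca-1+, lineage-negative bone marrow cells that include blood stem cells and early progenitors, and 1 library each was made after knockdown of LncHSC-1, after knockdown of LncHSC-2 and with a control knockdown virus. All 3 KSL groups shared the same handling: the mice were injected with 5-FU (5-fluorouracil, a drug that kills dividing cells), isolated Sca-1+ cells were transduced with a retrovirus and cultured for 2 days in medium with cytokines that included 10 ng/ml SCF (stem cell factor), and c-Kit+Sca-1+Lin-GFP+ cells were sorted, GFP (green fluorescent protein) marking the transduced cells. The other 2 libraries are technical replicates of 1 biological replicate of Gr1+ granulocytes, sorted without culture from bone marrow at 12 months of age. The sources used here give neither the knockdown sequences, nor the number and age of the mice behind the KSL libraries, nor the antibodies of the lineage gate.

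MHC class II molecules carry peptides of taken-up proteins to the cell surface and show them to CD4+ T cells. An alpha and a beta chain (H2-Aa with H2-Ab1 for I-A, H2-Eb1 as the beta chain of I-E) assemble with the invariant chain Cd74, which blocks the groove until proteases of the endosome cut it down to a fragment. H2-DM, a dimer of H2-DMa with H2-DMb1 or H2-DMb2, exchanges that fragment for peptide, and H2-DO, a dimer of H2-Oa and H2-Ob that is best known from B cells, holds H2-DM back. Ciita is the coactivator that turns the class II genes on; it binds no DNA itself and docks onto factors that sit on the so-called X and Y boxes upstream of each gene. B cells, dendritic cells and activated macrophages are the classical users of this pathway, and C57BL/6 mice make no I-E dimer because their I-E alpha gene is defective.

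The upstream sequences are printed to show the letters of the X and Y boxes in the genes whose levels follow, and how the members resemble and differ from each other there. In the 300-base promoter windows of RefSeq on GRCm38.p6 (250 bases before the start of a gene to 50 after it), 7 of the 10 members have an entry, and H2-Ab1, Ciita and the invariant chain gene have none. The Y box was searched as TGATTGG and the X box as AACNNATGA, on both strands, without overlap of the boxes in a pair; these letters were chosen with these promoters in view. The Y box was present in 6 of the 7 members, in all but H2-DMa, while 7.82% of 32851 promoters held it. An X box followed on the same strand by a Y box, with a gap of 10 to 40 bases, was present in 4 of the 7 members and in 0.0244% of all promoters, which is 8 promoters. The lines give 72 bases of each member, from 5′ to 3′ on the strand of the gene, with the X and Y boxes in capitals.
H2-Aa: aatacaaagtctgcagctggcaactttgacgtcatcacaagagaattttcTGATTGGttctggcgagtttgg
H2-Eb1: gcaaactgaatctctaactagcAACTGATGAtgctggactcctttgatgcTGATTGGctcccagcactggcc
H2-DMb1: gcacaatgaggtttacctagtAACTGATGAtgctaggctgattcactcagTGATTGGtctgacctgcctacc
H2-DMb2: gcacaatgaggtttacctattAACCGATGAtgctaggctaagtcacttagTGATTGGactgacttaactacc
H2-Oa: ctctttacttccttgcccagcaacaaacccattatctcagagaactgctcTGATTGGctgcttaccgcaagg
H2-Ob: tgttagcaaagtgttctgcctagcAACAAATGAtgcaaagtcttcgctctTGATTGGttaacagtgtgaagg
The stretch of H2-Aa lies at chr17:34287852-34287923 on the minus strand. The others lie on the plus strand, at chr17:34305756-34305827 for H2-Eb1, chr17:34153078-34153149 for H2-DMb1, chr17:34145107-34145178 for H2-DMb2, chr17:34092284-34092355 for H2-Oa and chr17:34238796-34238867 for H2-Ob. The Y box began 61 bases before the start of H2-Eb1, 63 before H2-DMb1, 92 before H2-DMb2, 59 before H2-Ob, 50 before H2-Aa and 45 before H2-Oa. From the end of the X box to the Y box there were 19 bases in H2-Eb1, 20 in H2-DMb1, 20 in H2-DMb2 and 17 in H2-Ob. The other 4 promoters with the pair are those of BC051142, Bscl2, Gm34733 and Tnfrsf9. A match is a run of letters and not a bound site, and the lack of a match in H2-DMa, or of an X box in H2-Aa and H2-Oa, says only that these letters are not in the window.

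Each KSL library held an estimated 24.1 M reads after LncHSC-1 knockdown, 19.9 M after LncHSC-2 knockdown and 21.0 M with the control virus, read from the step of the deposited count values. The members rested on 26 to 4544 reads each. Levels are FPKM as deposited, read fragments scaled to the length of the transcript and to the size of the library. With 1 library per group there is no replicate and no test: the 95% intervals hold counting error alone, so a difference that clears them separates 2 libraries and not 2 conditions. The depth of knockdown was not checked, because the sources used here do not say which features stand for LncHSC-1 and LncHSC-2. Levels in bulk RNA cannot tell fewer cells of a type apart from less RNA per cell.

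All 10 members were read in KSL cells. Cd74 had 142.6 FPKM in the LncHSC-1 knockdown library, 83.0 FPKM in the LncHSC-2 knockdown library and 73.7 FPKM in the control library. This invariant chain gene (mm9 chromosome 18, 60963503 to 60972306, plus strand, counted as 1 feature with the microRNA Mir5107) stood above 95.3% of the 9153 features with a mean of at least 5 FPKM over the 3 libraries in the LncHSC-1 library, and above 88.1% of them in the control library. H2-DMa had 83.6 FPKM after LncHSC-1 knockdown, 85.2 FPKM after LncHSC-2 knockdown and 76.8 FPKM in control. Cd74 and H2-DMa had overlapping counting intervals in the LncHSC-2 and control libraries, where H2-DMa was nominally first, and did not overlap in the LncHSC-1 library, where Cd74 was first.

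The chains of the surface dimers came next. H2-Ab1, the I-A beta chain, had 59.3 FPKM after LncHSC-1 knockdown, 44.9 FPKM after LncHSC-2 knockdown and 41.9 FPKM in control. H2-Aa, the I-A alpha chain, had 51.3 (LncHSC-1), 29.5 (LncHSC-2) and 27.4 FPKM (control). H2-Eb1, the I-E beta chain, had 27.7 (LncHSC-1), 15.9 (LncHSC-2) and 16.3 FPKM (control). For each of these 3 genes the LncHSC-1 library was the high one, and for each the counting intervals of the LncHSC-2 and control libraries overlapped.

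The editors of the peptide groove were lower, apart from H2-DMa. H2-DMb1 had 17.2 FPKM after LncHSC-1 knockdown, 13.9 FPKM after LncHSC-2 knockdown and 12.9 FPKM in control, and its near copy H2-DMb2 had 4.34 (LncHSC-1), 3.15 (LncHSC-2) and 1.64 FPKM (control). The GENCODE transcripts of these genes are identical at 94.4% of 1255 aligned bases, and 27.2% of the 50-base windows of the H2-DMb1 transcript occur unchanged in H2-DMb2, so how their reads were split is uncertain and the sum of 21.5 (LncHSC-1), 17.1 (LncHSC-2) and 14.5 FPKM (control) is the safer value. H2-Oa had 10.1 (LncHSC-1), 8.96 (LncHSC-2) and 8.40 FPKM (control) and H2-Ob had 9.63 (LncHSC-1), 9.65 (LncHSC-2) and 8.79 FPKM (control); the intervals of H2-Oa and H2-Ob overlapped in every library. Ciita was the lowest member, with 1.38 FPKM after LncHSC-1 knockdown, 0.695 FPKM after LncHSC-2 knockdown and 0.859 FPKM in control. H2-DMb2 and Ciita are therefore the 2 members under the floor of a mean of 5 FPKM, and the other 8 passed it.

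**Figure D1:**
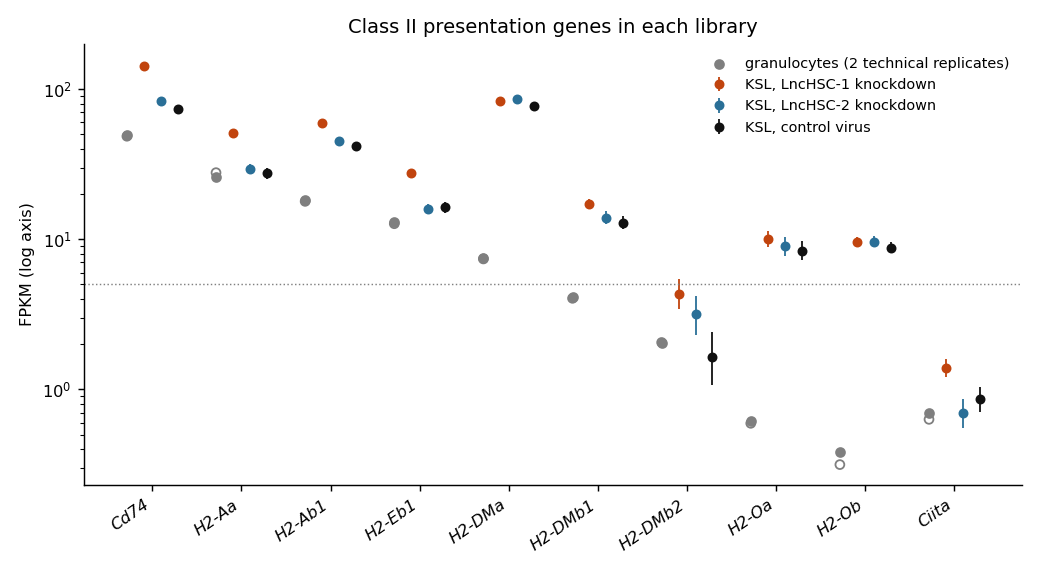
FPKM of each of the 10 genes on a log axis, with the 2 technical replicates of granulocytes first and then the LncHSC-1, LncHSC-2 and control KSL libraries. Bars on the KSL points are 95% Poisson counting intervals and the dotted line marks 5 FPKM; Cd74, H2-Aa, H2-Ab1 and H2-Eb1 stand highest among KSL cells in the LncHSC-1 library, while H2-DMa lies between 76.8 and 85.2 FPKM in KSL cells.

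After LncHSC-1 knockdown, the invariant chain and the surface dimer chains were higher than in control by 0.49 to 0.94 on the log2 scale, and the DM alpha chain and the DO genes by 0.12 to 0.24. Together the 10 genes had 407 FPKM in the LncHSC-1 library and 269 FPKM in control, a difference of 0.60 on the log2 scale, and took 0.0511% of estimated reads in the LncHSC-1 library against 0.0324% in control. Cd74 was higher by 0.94 in log2(FPKM + 1), or 1.93-fold in FPKM, with a log2 ratio of 0.95 in reads at equal depth (interval 0.88 to 1.03). H2-Aa was higher by 0.88 in log2(FPKM + 1) (interval of the read ratio 0.77 to 1.04), H2-Eb1 by 0.73 (0.63 to 0.91) and H2-Ab1 by 0.49 (0.39 to 0.61). The interval of H2-Ab1 did not reach that of H2-Aa or H2-Eb1, so the 2 chains of I-A differed in their ratio by more than counting error.

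Of the genes that act inside the endosome, those over the floor were higher by 0.12 to 0.39 in log2(FPKM + 1). H2-DMa was higher by 0.12 in log2(FPKM + 1) (interval of the read ratio 0.01 to 0.23), and H2-DMb1 by 0.39 (0.22 to 0.60). H2-Oa was higher by 0.24 (-0.01 to 0.54) and H2-Ob by 0.12 (-0.03 to 0.29), and both intervals span 0. H2-DMb2, with 80 reads after LncHSC-1 knockdown and 26 in control, had a log2 ratio of 1.40 in reads (0.75 to 2.10), while the sum of both DM beta genes had 0.50 (0.32 to 0.69), close to H2-Ab1. The coactivator Ciita, with 207 reads after LncHSC-1 knockdown and 110 in control, had a log2 ratio of 0.69 in reads (0.35 to 1.04). Summed by role, the log2 ratio in reads was 0.82 for Cd74 with the 3 surface chains (0.77 to 0.87), 0.23 for the 3 DM genes (0.13 to 0.32) and 0.17 for the 2 DO genes (0.03 to 0.30).

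Of the 8 members over the floor, 0 were at least 2-fold higher than control, where 0.634% of all features were; 3 were at least 1.5-fold higher, where 1.47% were, and these were Cd74, H2-Aa and H2-Eb1. Here and in all counts that follow, the fold is that of FPKM + 1. All 8 were higher by some amount, beside 43.8% of features, and their median was 0.44 beside -0.02 for all features. The read interval lay above 0 for 6 of the 8, beside 14.9% of features, and below 0 for 0 of the 8, beside 24.8% of features. The members were grouped with these ratios known, so the counts describe the genes and nothing is read from them.

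**Figure D2:**
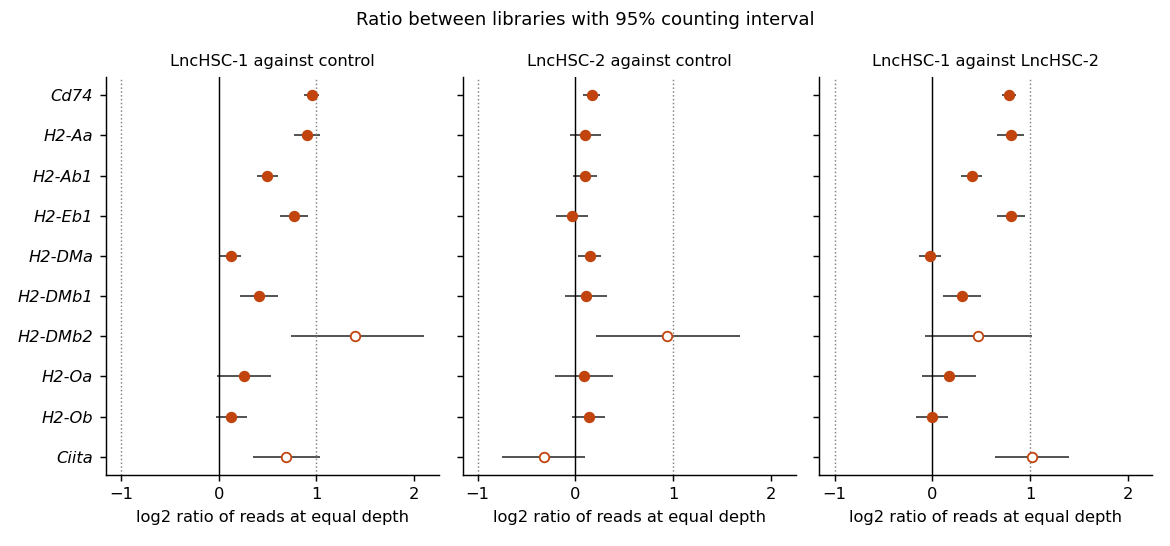
Log2 ratio of estimated reads at equal depth for each gene, with its 95% counting interval, for LncHSC-1 against control, LncHSC-2 against control and LncHSC-1 against LncHSC-2. Open symbols are H2-DMb2 and Ciita, under the floor, and dotted lines mark 2-fold; Cd74, H2-Aa and H2-Eb1 lie at 0.77 to 0.95 in the first panel and at -0.04 to 0.17 in the second.

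After LncHSC-2 knockdown the class II genes stood near control. The 10 genes together had 295 FPKM in the LncHSC-2 library and 269 FPKM in control, a log2 difference of 0.13. Cd74 was higher by 0.17 in log2(FPKM + 1) (interval of the read ratio 0.08 to 0.26) and H2-DMa by 0.15 (0.03 to 0.26). H2-Aa had 0.10 (-0.06 to 0.26), H2-Ab1 0.10 (-0.03 to 0.22) and H2-Eb1 -0.03 (-0.20 to 0.13), all spanning 0. H2-DMb1 had 0.10, H2-Oa 0.08 and H2-Ob 0.12, with intervals that also span 0. Ciita, with 83 reads after LncHSC-2 knockdown and 110 in control, had a log2 ratio of -0.32 in reads (-0.75 to 0.10), and H2-DMb2, with 47 reads after LncHSC-2 knockdown and 26 in control, had 0.94 (0.21 to 1.69). The sum of both DM beta genes, the safer value, had 0.18 (-0.02 to 0.38), which spans 0.

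Of the 8 members over the floor, 0 were at least 2-fold higher after LncHSC-2 knockdown, beside 0.601% of features, and 0 were at least 1.5-fold higher, beside 1.04%. By any amount 7 were higher, beside 52.1% of features, and 1, H2-Eb1, was lower. The median was 0.10 on the FPKM scale. This small shift depends on the scale: with the deposited count columns, which put the median of all features in this comparison at -0.14, the median of the 8 members was -0.04 and 2 were higher. The comparisons of LncHSC-1 and of LncHSC-2 with control share the control library.

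Set against each other, the knockdown libraries differed, among the members over the floor, mainly in the genes of the surface complex. Cd74 was higher by 0.77 in log2(FPKM + 1) after LncHSC-1 than after LncHSC-2 knockdown (interval of the read ratio 0.71 to 0.86), H2-Aa by 0.78 (0.67 to 0.94), H2-Eb1 by 0.77 (0.66 to 0.95) and H2-Ab1 by 0.39 (0.30 to 0.51). H2-DMa had -0.03 (-0.13 to 0.09) and H2-Ob -0.00 (-0.16 to 0.16), and both spanned 0. H2-DMb1 had 0.28 (0.11 to 0.49) and H2-Oa 0.15 (-0.10 to 0.45). Under the floor, Ciita had a log2 ratio of 1.02 in reads (0.64 to 1.40) and H2-DMb2 of 0.46 (-0.07 to 1.02). The sum of both DM beta genes had 0.32 (0.14 to 0.50). Of the 8 members over the floor, 6 were higher by some amount, beside 40.4% of features. None of them (0) was at least 2-fold higher, beside 0.535% of features, and 3 were at least 1.5-fold higher, beside 1.37%, namely Cd74, H2-Aa and H2-Eb1. The comparison shares the LncHSC-1 library with the one of LncHSC-1 against control.

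**Figure D3:**
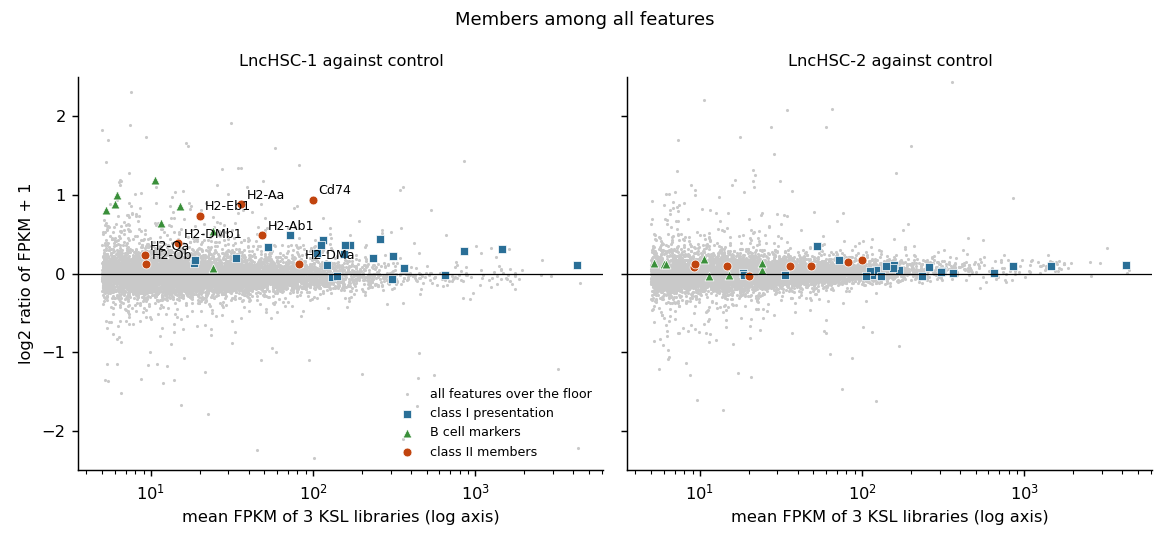
Log2 ratio of FPKM + 1 against mean FPKM over the 3 KSL libraries (log axis) for all 9153 features over the floor, LncHSC-1 against control and LncHSC-2 against control, with the class II genes in red, class I presentation genes as blue squares and B cell markers as green triangles. The vertical axis is cut at 2.5 in both directions, which leaves out 36 features in the first panel and 48 in the second; the red points lie between 0.12 and 0.94 in the first panel and between -0.03 and 0.17 in the second.

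Ratios of 2 genes within a library do not depend on the scaling between libraries, and show how the make-up of the pathway differed. Cd74 stood at 1.71 times H2-DMa in FPKM after LncHSC-1 knockdown (interval 1.61 to 1.81), at 0.973 times after LncHSC-2 knockdown (0.908 to 1.04) and at 0.961 times in control (0.894 to 1.03). H2-Aa stood at 0.866 times H2-Ab1 after LncHSC-1 knockdown (0.807 to 0.930), against 0.657 after LncHSC-2 knockdown (0.596 to 0.725) and 0.654 in control (0.592 to 0.722). For both pairs the LncHSC-1 library was apart from the others, and the LncHSC-2 and control libraries overlapped. Cd74 over H2-Aa was more even, at 2.78 after LncHSC-1 knockdown, 2.81 after LncHSC-2 knockdown and 2.69 in control, and so was H2-Aa over H2-Eb1, at 1.85 after LncHSC-1 knockdown, 1.86 after LncHSC-2 knockdown and 1.69 in control.

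On the chromosome, 8 of the members lie in the class II region (mm9 chromosome 17), within the 252 kb from H2-Oa to H2-Ea-ps that also hold genes of class I presentation. H2-Oa begins at 34229324, H2-DMa at 34272616, H2-DMb2 at 34282361, H2-DMb1 at 34290136, H2-Ob at 34375850 and H2-Ab1 at 34400172, and the I-A alpha and I-E beta genes follow, H2-Aa between 34419696 and 34424716 on the minus strand and H2-Eb1 from 34442812. The surface chain genes, with 0.49 to 0.88 in log2(FPKM + 1) after LncHSC-1 knockdown, are neighbours that start from 171 to 213 kb past the start of H2-Oa, and H2-Ob at 147 kb had 0.12. Toward the other end, H2-DMb2 at 53.0 kb had 1.01, under the floor, and H2-DMb1 at 60.8 kb had 0.39. Between the DM genes and H2-Ob, the peptide transporter Tap1 had 0.25 and Tap2 0.11, the immunoproteasome subunit Psmb9 had 0.20 and Psmb8 0.22 in log2(FPKM + 1) for LncHSC-1 against control. The bromodomain gene Brd2, which lies between H2-Oa and H2-DMa and has no part in presentation, had 0.03. Beyond H2-Eb1, the little used beta chain gene H2-Eb2 had 106 reads after LncHSC-1 knockdown, 44 after LncHSC-2 knockdown and 44 in control, an interval of 0.53 to 1.59 in log2 read ratio for LncHSC-1 against control. The defective I-E alpha gene (H2-Ea-ps) had 1 read after LncHSC-1 knockdown, 0 after LncHSC-2 knockdown and 0 in control, where a count of 0 allows up to 3 reads. Ciita lies elsewhere, on mm9 chromosome 16 from 10480165 to 10527657 on the plus strand. In the KSL tables the locus given for Ciita also covers Nubp1 and Fam18a, and that of H2-Oa covers the antisense BC051537, so reads of these neighbours could not be told apart with certainty.

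**Figure D4:**
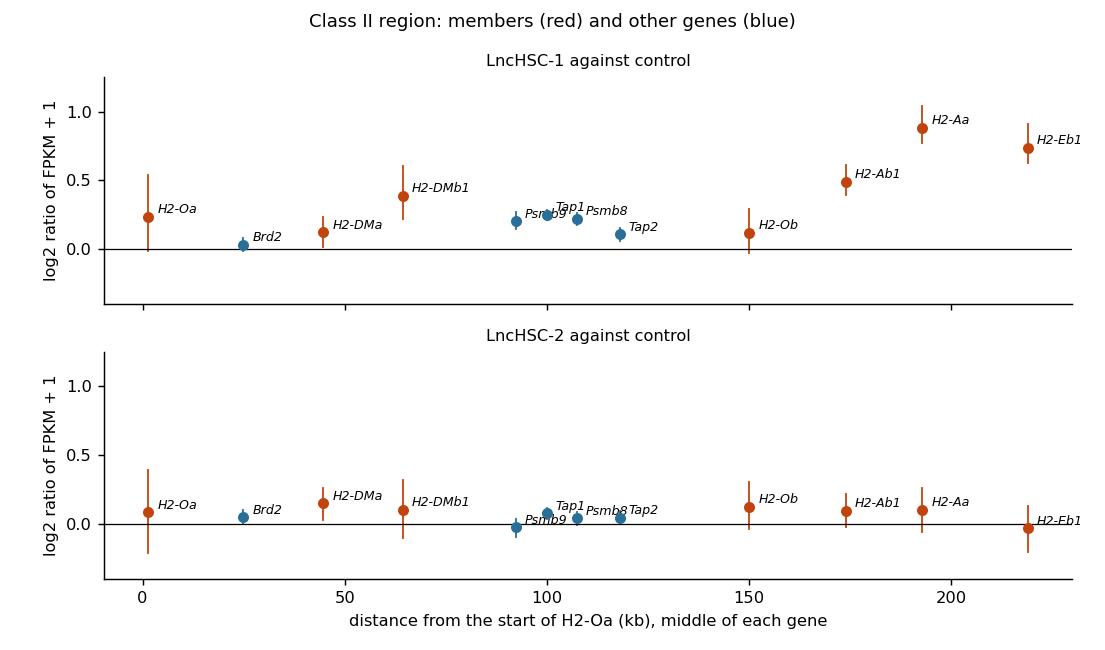
Log2 ratio of FPKM + 1 for the 12 genes of the class II region over the floor, by distance in kb from the start of H2-Oa. Panels show LncHSC-1 against control and LncHSC-2 against control, with members in red and other genes in blue. Lines are 95% counting intervals of the read ratio. In the first panel H2-Ab1, H2-Aa and H2-Eb1 stand together at 0.49 to 0.88, while Brd2 is at 0.03 and H2-Ob at 0.12. H2-DMb2, under the floor, is not drawn.

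The factors that sit on the X and Y boxes stood near control. Of 7 such genes, all over the floor, 3 were higher and 4 lower after LncHSC-1 knockdown, 0 by 1.5-fold, with a median of -0.00. Over all features 43.8% were higher, 1.47% at least 1.5-fold higher and 0.754% at least 1.5-fold lower. Rfx5, the DNA-binding subunit of the RFX complex, had 11.8 FPKM after LncHSC-1 knockdown, 9.94 FPKM after LncHSC-2 knockdown and 11.8 FPKM in control. Its partners Rfxank and Rfxap had 5.54 and 8.63 FPKM after LncHSC-1 knockdown, against 4.73 and 7.91 FPKM in control. The Y box subunits Nfya, Nfyb and Nfyc differed by -0.06, -0.12 and -0.00 in log2(FPKM + 1), and Creb1, which binds beside RFX, by -0.13. All of them were above Ciita in FPKM in each KSL library.

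Interferon gamma is a known inducer of Ciita, and Irf1 is one of the factors it acts through. Of 13 genes of this pathway and of the myeloid and lymphoid factors that act on Ciita, 10 passed the floor. After LncHSC-1 knockdown 8 of these 10 were higher, beside 43.8% of features, and 2 lower, with a median of 0.09. By 1.5-fold in FPKM + 1 there were 0, beside 1.47% of features higher and 0.754% lower. Irf8, a factor of dendritic cells, monocytes and B cells, had 14.8 FPKM after LncHSC-1 knockdown, 10.8 FPKM after LncHSC-2 knockdown and 9.60 FPKM in control, a difference of 0.57 in log2(FPKM + 1) between LncHSC-1 and control, or 1.54-fold in FPKM without the added 1. Irf1 had 41.2 (LncHSC-1), 39.1 (LncHSC-2) and 38.6 FPKM (control), a difference of 0.09. The receptor chain Ifngr1 and the kinase Jak1 had -0.17 and -0.11 after LncHSC-1 knockdown. After LncHSC-2 knockdown the median of the list was 0.01.

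The proteases and membrane proteins that prepare the groove varied by gene. Of 13 endolysosomal genes, 12 passed the floor, 9 higher and 3 lower after LncHSC-1 knockdown, beside 43.8% of features higher, with a median of 0.12. By at least 1.5-fold 1 of them, Ctss, was higher, beside 1.47% of features. Ctss, the cathepsin S that makes the last cuts in the invariant chain in antigen-presenting cells of the blood lineage, had 76.3 FPKM after LncHSC-1 knockdown, 48.2 FPKM after LncHSC-2 knockdown and 49.0 FPKM in control. Ctsh and Ctsz, other cysteine cathepsins, were higher by 0.40 and 0.36 after LncHSC-1 knockdown. Ctsl, cathepsin L, had 17.3 (LncHSC-1), 12.9 (LncHSC-2) and 15.7 FPKM (control), and the aspartic protease Ctsd 210.2 (LncHSC-1), 213 (LncHSC-2) and 194 FPKM (control). The lysosomal membrane protein Lamp1 had 108 (LncHSC-1), 112 (LncHSC-2) and 107 FPKM (control).

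Class I presentation, which shows peptides of the cell's own proteins to CD8+ T cells, was higher in most of its genes after LncHSC-1 knockdown. Of its 23 genes, all over the floor, 19 were higher after LncHSC-1 knockdown, beside 43.8% of features, and 4 lower, with a median of 0.22. By 1.5-fold there were 0, beside 1.47% of features higher and 0.754% lower. The read interval lay above 0 for 18 of the 23, beside 14.9% of features. The heavy chain H2-K1 had 1645 FPKM after LncHSC-1 knockdown, 1413 FPKM after LncHSC-2 knockdown and 1321 FPKM in control, a log2 difference of 0.32 between LncHSC-1 and control. The non-classical chain H2-T23 was higher by 0.43, H2-Q6 by 0.49 and the light chain B2m by 0.11, while the peptide-loading chaperone Calr had -0.02. The closely related H2-Q and H2-T genes may share reads, so their single values are uncertain. After LncHSC-2 knockdown the median was 0.04.

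Costimulatory genes were mostly faint. Of 6, only Cd274 passed the floor, with 15.4 FPKM after LncHSC-1 knockdown, 11.0 FPKM after LncHSC-2 knockdown and 12.9 FPKM in control. Cd86, a ligand of Cd28 on antigen-presenting cells, had 4.31 (LncHSC-1), 2.90 (LncHSC-2) and 2.74 FPKM (control), and Cd40, the receptor for T cell help, 1.30 (LncHSC-1), 0.686 (LncHSC-2) and 0.558 FPKM (control). The pooled reads of the 5 genes under the floor were higher after LncHSC-1 knockdown than in control by 0.52 on the log2 scale (0.36 to 0.68), while the ratio was 0.01 after LncHSC-2 knockdown (-0.17 to 0.19). Of the ligases that remove class II from the surface, March8 was at -0.11 after LncHSC-1 knockdown and March1 was under the floor, at 0.706 FPKM after LncHSC-1 knockdown and 0.578 FPKM in control.

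Markers of cells that use class II were higher too. Of 21 B cell markers, 8 passed the floor in KSL cells. All 8 were higher after LncHSC-1 knockdown, beside 43.8% of features, with a median of 0.83. By at least 1.5-fold 6 were higher, beside 1.47% of features, and by at least 2-fold 2 were, beside 0.634%. All 21 markers together summed to 153 FPKM after LncHSC-1 knockdown, 101 FPKM after LncHSC-2 knockdown and 94.1 FPKM in control. Cd79a, a signalling chain of the B cell receptor, had 21.95 (LncHSC-1), 11.5 (LncHSC-2) and 11.6 FPKM (control). Ms4a1 (the B cell antigen CD20) had 15.5 (LncHSC-1), 9.30 (LncHSC-2) and 9.55 FPKM (control), whereas Cd72 had 24.2 (LncHSC-1), 25.2 (LncHSC-2) and 22.9 FPKM (control). The 13 markers under the floor were together higher by 0.92 in reads (0.78 to 1.06). The recombination gene Rag1 had 2 reads after LncHSC-1 knockdown, 0 after LncHSC-2 knockdown and 0 in control, and Igll1, of the pre-B cell receptor, had 1 after LncHSC-1 knockdown, 1 after LncHSC-2 knockdown and 0 in control. In the same order, Rag2 had 14, 13 and 17 reads, Vpreb1 had 6, 10 and 8, and Vpreb3 had 9, 5 and 9. For Rag2, Vpreb1 and Vpreb3 the log2 read ratio of LncHSC-1 to control was -0.50, -0.64 and -0.22, with intervals that span 0. After LncHSC-2 knockdown the median over the 8 was 0.13. The part of B cell RNA in the class II values was not tested.

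Within each library, the ratio of class II genes to Cd79a differed by gene. Cd74 stood at 6.50 times Cd79a in FPKM after LncHSC-1 knockdown (6.01 to 7.03), 7.23 times after LncHSC-2 knockdown (6.43 to 8.16) and 6.35 times in control (5.66 to 7.14), which overlap. H2-Aa over Cd79a was 2.34 after LncHSC-1 knockdown, 2.57 after LncHSC-2 knockdown and 2.36 in control. H2-DMa over Cd79a was 3.81 after LncHSC-1 knockdown, 7.43 after LncHSC-2 knockdown and 6.61 in control, lowest in the LncHSC-1 library. In the same order of libraries, H2-Aa stood at 4.77, 3.82 and 4.27 times the monocyte marker Ly86. It stood at 2.11, 1.85 and 1.55 times the macrophage marker Mpeg1. B cell markers differed among themselves in log2(FPKM + 1) for LncHSC-1 against control, with Pou2af1 at 1.19, Cd79a at 0.86 and Cd72 at 0.07. Such ratios thus depend on the marker chosen, and the source of the RNA was not tested.

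Most markers of dendritic cells and all markers of monocytes over the floor were also higher after LncHSC-1 knockdown. Of 17 dendritic cell markers, 5 passed the floor, 4 higher and 1 lower, beside 43.8% of features higher, with a median of 0.49. Of these 4, Tcf4 was at 0.02, with a read interval that spans 0 (-0.05 to 0.09), and the lower gene was Flt3. The 12 dendritic cell markers under the floor were together higher by 0.59 in reads (0.44 to 0.75). The sum over all 17 was 1283 FPKM after LncHSC-1 knockdown, 980.2 FPKM after LncHSC-2 knockdown and 904 FPKM in control. This sum was mostly Bst2 and Irf7, which interferon also induces. Ly6d had 60.3 (LncHSC-1), 29.7 (LncHSC-2) and 27.5 FPKM (control), and Flt3, a receptor of early progenitors as well, 21.98 (LncHSC-1), 24.7 (LncHSC-2) and 24.4 FPKM (control). Cd209a had no read in any KSL library, Batf3 none after LncHSC-2 knockdown or in control, and Xcr1 4 reads after LncHSC-1 knockdown, 3 after LncHSC-2 knockdown and 1 in control. Of 17 monocyte and macrophage markers found, 7 passed and all 7 were higher, beside 43.8% of features, with a median of 0.49. All 17 together summed to 410 FPKM after LncHSC-1 knockdown, 267 FPKM after LncHSC-2 knockdown and 255 FPKM in control. Ly6c2 had 101 FPKM after LncHSC-1 knockdown against 32.5 FPKM in control and Ms4a4c 60.3 FPKM after LncHSC-1 knockdown against 23.2 FPKM in control, while the colony-stimulating factor receptor Csf1r had 2.31 (LncHSC-1), 2.09 (LncHSC-2) and 2.24 FPKM (control). The 10 monocyte markers under the floor were together at 0.11 in reads (-0.01 to 0.23). After LncHSC-2 knockdown the medians were 0.03 for dendritic cell and 0.05 for monocyte markers, and their part in the class II values was not tested.

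The remaining lists were of neutrophils, T cells and KSL cells themselves. Neutrophil markers, 5 of 13 over the floor, had a median of -0.03 after LncHSC-1 knockdown, and all 13 summed to 124 FPKM after LncHSC-1 knockdown, 119 FPKM after LncHSC-2 knockdown and 131 FPKM in control. T cell markers, 2 of 10 over the floor, had a median of 0.21, and all 10 summed to 37.1 (LncHSC-1), 34.3 (LncHSC-2) and 33.3 FPKM (control). The T cell marker Cd3e had 0 reads after LncHSC-1 knockdown, 0 after LncHSC-2 knockdown and 1 in control. The KSL label was borne by its own markers: all 12 passed the floor, as did 9153 of all 38166 features. Their median was -0.09 after LncHSC-1 knockdown, with 5 higher and 7 lower, beside 43.8% of features higher. After LncHSC-2 knockdown it was -0.12, with 2 higher and 10 lower, beside 52.1% of features higher. Ly6a (Sca-1) had 1211 FPKM after LncHSC-1 knockdown, 1025 FPKM after LncHSC-2 knockdown and 1010.1 FPKM in control, Kit 59.1 (LncHSC-1), 62.0 (LncHSC-2) and 67.6 FPKM (control), and Cd34 204 (LncHSC-1), 237 (LncHSC-2) and 229 FPKM (control).

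**Figure D5:**
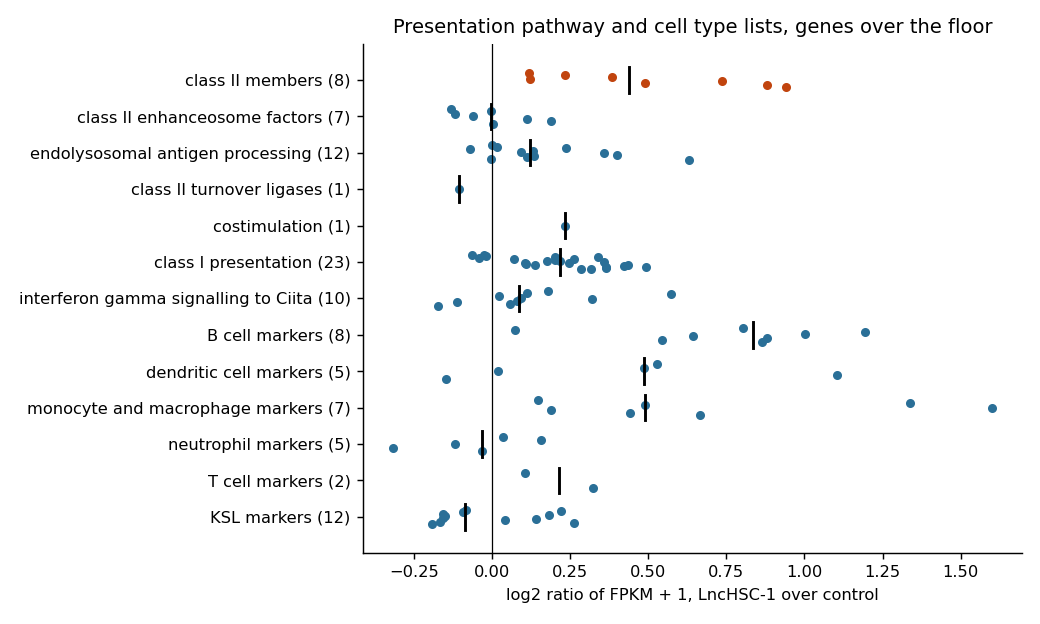
Log2 ratio of FPKM + 1 for LncHSC-1 against control, 1 point per gene over the floor, for the class II genes and each list of pathway or cell type genes, with the median as a black line. The median is 0.44 for the class II genes, 0.83 for B cell markers, 0.22 for class I presentation and -0.00 for the factors of the X and Y boxes.

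The named genes whose ratios to control were nearest to the middle of the class II genes (0.44 after LncHSC-1 and 0.10 after LncHSC-2 knockdown) were, of 7969 named genes over 3 libraries and by straight distance in these 2 log2 ratios, Hvcn1, Grn, Tor3a, Oas3, H2-T23, Ube2l6, Slfn5, Ifit2, Thap3 and Gbp2. Their distances ran between 0.00887 and 0.0540. Hvcn1, a proton channel of B cells and phagocytes, had 15.8 FPKM after LncHSC-1 knockdown, 12.3 FPKM after LncHSC-2 knockdown and 11.3 FPKM in control. Oas3, an antiviral enzyme induced by interferon, had 98.4 (LncHSC-1), 76.3 (LncHSC-2) and 71.4 FPKM (control), and the interferon-induced Gbp2 had 32.9 (LncHSC-1), 25.2 (LncHSC-2) and 23.2 FPKM (control). With 3 libraries such likeness is a description of position only.

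In Gr1+ granulocytes the genes of the surface complex were read at 12.7 FPKM or more, and the DO genes and Ciita at 0.698 FPKM or less. Cd74 had 49.7 and 48.5 FPKM in the 2 technical replicates, H2-Aa 25.9 and 27.7 FPKM, H2-Ab1 18.1 and 17.9 FPKM and H2-Eb1 13.1 and 12.7 FPKM. H2-DMa had 7.54 and 7.39 FPKM, H2-DMb1 4.15 and 4.04 FPKM and H2-DMb2 2.03 and 2.05 FPKM. H2-Oa was at 0.613 and 0.594 FPKM, H2-Ob at 0.383 and 0.315 FPKM and Ciita at 0.698 and 0.631 FPKM. The 10 genes summed to 122.3 and 121.8 FPKM; the KSL sums stand above, and no fold is given because the tables were scaled separately and come from other animals and handling.

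Within the granulocyte libraries the order of the genes differed from that in KSL cells. Cd74 stood at 6.58 times H2-DMa, against 0.961 times in control KSL cells, and H2-Aa at 1.49 times H2-Ab1, against 0.654 times in control KSL cells. H2-Ob stood at 0.0853 times H2-DMb1, against 0.681 times in control KSL cells. The order in granulocytes ran Cd74, H2-Aa, H2-Ab1, H2-Eb1, H2-DMa, H2-DMb1, H2-DMb2, Ciita, H2-Oa and H2-Ob; these ratios are means over 2 technical replicates, with no measure of the spread between animals.

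The Gr1+ libraries carried all 13 neutrophil markers at 5 FPKM or more and also 12 of 17 monocyte and macrophage markers. Mpeg1, a pore-forming protein of macrophages, had 199.5 and 200.9 FPKM, and Csf1r had 58.7 and 56.8 FPKM. The 21 B cell markers had a median of 0.196 FPKM and summed to 10.5 and 9.56 FPKM, with Cd79a at 0.681 and 0.953 FPKM. H2-Aa stood at 32.8 times Cd79a in granulocytes and at 2.36 times in control KSL cells, and at 0.134 times Mpeg1 in granulocytes and 1.55 times in control KSL cells. Among the other genes of the pathway, Ctss had 43.0 and 42.6 FPKM, Rfx5 1.99 and 2.07 FPKM, and March1, the ligase that removes class II from the surface, had 19.7 FPKM in both. The part of monocyte RNA in the granulocyte class II values was not tested.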

How the data were processed

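PolyA-selected RNA was sequenced with the TruSeq kit, per the labels' protocols. The submitters' processing notes name mm9 and DESeq; aligner, counter and annotation: not given in the sources used here. FPKM values were used as deposited. The deposited KSL count columns served as a signal, that is, reads times a factor of each library: of values up to 20 reads, 91.7% to 92.1% were whole multiples of 1 step within 0.1 read, and dividing by that step (0.924 for LncHSC-1, 1.03 for LncHSC-2, 1.08 for control) gave estimated reads. No count test was run on them, since each group has 1 library. The deposited granulocyte count columns are a score, already scaled by the authors, with a total of 40.4 M in each library.

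For the 9153 features with a mean of at least 5 FPKM over the KSL libraries, log2 ratios of FPKM + 1 were computed, which understate differences of low genes. Exact 95% binomial intervals of read ratios, at depth per FPKM, cover counting error only and assume that reads are independent. Scaling factors (median of ratios) were 0.989, 1.01 and 1.00 for the LncHSC-1, LncHSC-2 and control FPKM, so none was applied.

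The members and the 13 gene lists were chosen with earlier results of these data known. Named genes are all members, up to 5 of each list with the highest mean FPKM and up to 5 furthest from control after LncHSC-1 knockdown, all genes of the short class II lists, the sort markers and the 10 nearest genes; genes named for having few or no reads, the genes of the class II region and the promoters with the X and Y pair were chosen after their values were seen. The ratio pairs and the sums by role were also chosen with the values known. B cell libraries were not analysed here. Some items of the lists and of the culture medium are not reported here. Python 3.11.15, numpy 2.4.6, pandas 2.3.3, scipy 1.17.1 and matplotlib 3.10.9 were used, and the ratio and interval code was tested on simulated data.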

Additional observations from a re-analysis of the deposited data

How the results depend on the processing

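No paired analysis was possible because each KSL group has 1 library. For LncHSC-1 against control, the median of the members over the floor lay between 0.38 and 0.49 under every alternative run, and all 71 alternative values of single members kept their sign. For LncHSC-2 against control the median of the members over the floor was -0.040 with the deposited count columns in place of 0.10, and 2 members were higher in place of 7; these columns put the median of all features at -0.14, against 0.00 for FPKM. For LncHSC-1 against LncHSC-2 they put that median at 0.12, and H2-DMa at 0.12 in place of -0.03. Of 211 alternative values of single members, 10 changed sign; these lay in LncHSC-2 against control, or were H2-DMa and H2-Ob in LncHSC-1 against LncHSC-2. Features past 2-fold numbered 97 for LncHSC-1 against control, 87 for LncHSC-2 against control and 105 for LncHSC-1 against LncHSC-2; a floor of 1 FPKM gave 221, 209 and 209, no floor 283, 265 and 266, and a 1.5-fold rule 204, 162 and 211, since more features are then counted. Members past the rule for LncHSC-1 against control went to 1 with a floor of 1 FPKM and 1 with no floor, which is H2-DMb2, and to 3 with the 1.5-fold rule, also 3 for LncHSC-1 against LncHSC-2. The summed level was 0.44 without Cd74 in place of 0.60. The granulocyte sum was 121.8 to 122.3 FPKM without 1 of the technical replicates. The median of monocyte markers was 0.23 with a floor of 1 FPKM in place of 0.49. Of the 10 nearest genes, 7 stayed with a pseudocount of 0.1. Depth limits Ciita and H2-DMb2, with 83 to 207 and 26 to 80 reads.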
